A study of Mus musculus with 18 samples.

Results

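The genes described here encode the chaperones and folding enzymes of the endoplasmic reticulum (ER) together with the sensors, transcription factors and degradation machinery of the unfolded protein response (UPR). They are 36 genes chosen by name from what is known of their function, with earlier results of these data also known. All 36 were found among the 25651 genes of a count table of mouse pancreas. Of the 36, 33 passed the filter on low counts, as did 6920 genes in all. They were followed through 3 groups of mice, all 20 weeks old and of mixed 129Sv x C57BL/6 background: 5 mice labelled KPC ASC KO, 7 labelled KPC and 6 labelled wild type (WT). KPC mice are in common use to model pancreatic cancer, and the labels spell out neither the alleles nor the Cre driver. ASC is the product of Pycard, the adaptor that links inflammasome sensors to caspase 1, and the labels do not say in which cells it was deleted. Each library is the whole pancreas RNA of 1 mouse, primed at the poly(A) tail with a unique molecular identifier (UMI), so a count stands for a captured transcript. The design addresses what the KPC genotype, and then the loss of ASC on top of it, does to the pancreas.

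Proteins destined for secretion fold in the ER lumen, where the chaperone BiP (Hspa5) binds unfolded chains, disulfide isomerases join their cysteines, and the lectins calnexin and calreticulin retain glycoproteins until they are folded. Unfolded chains draw BiP away from the sensors IRE1 (Ern1), PERK (Eif2ak3) and ATF6, which act through the transcription factors XBP1, ATF4 and ATF6 itself to raise chaperones and ER-associated degradation (ERAD), the route by which misfolded proteins leave the ER for the proteasome. Acinar cells of the pancreas, which secrete the digestive enzymes, are filled with rough ER and depend on XBP1 in mice, as do the antibody-secreting plasma cells.

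Many of these genes share a promoter motif, the ER stress response element (ERSE), to which the factor NF-Y and active ATF6 or XBP1 bind. Promoters of RefSeq on build GRCm38.p6, from 250 bases before to 50 bases after the annotated start, were at hand for 30 of the 36 genes, the others being Hyou1, Manf, Erp27, Erp29, Atf6 and Derl1. ERSE, searched as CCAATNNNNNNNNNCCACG on both strands, occurred in 9 of the 30 (30.0%), against 37 of 27025 genes (0.137%). They were Hspa5, Hsp90b1, Dnajc3, Creld2, Calr, Canx, Pdia6, Syvn1 and Derl3. ERSE-II, searched as ATTGGNCCACG, occurred in Dnajb11 and Herpud1 (6.67% against 0.0444%). The UPR element TGACGTGG occurred in Txndc5 alone of the 30 (3.33% against 0.714%), and the C/EBP-ATF element TGATGNAAT in none of them (0.0% against 1.08%). No site of one motif overlapped a site of another. The 250 bases before the start follow for 6 genes whose levels differ in how they moved below, with exact matches to ERSE or ERSE-II in capitals. They are BiP and GRP94, which carry 1 and 2 exact matches to ERSE, Dnajc3 and Derl3 with 1 each, Herpud1 with ERSE-II, and the pancreatic isomerase Pdia2, in which neither was found. Each is written 5′ to 3′ on the strand of the gene.
Hspa5, chr2:34771840-34772089, forward strand: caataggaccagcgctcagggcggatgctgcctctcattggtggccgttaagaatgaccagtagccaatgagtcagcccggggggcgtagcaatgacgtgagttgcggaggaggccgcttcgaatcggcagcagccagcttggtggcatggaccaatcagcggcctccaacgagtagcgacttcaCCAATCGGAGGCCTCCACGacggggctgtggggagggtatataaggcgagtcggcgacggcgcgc
Hsp90b1, chr10:86705445-86705694, reverse strand: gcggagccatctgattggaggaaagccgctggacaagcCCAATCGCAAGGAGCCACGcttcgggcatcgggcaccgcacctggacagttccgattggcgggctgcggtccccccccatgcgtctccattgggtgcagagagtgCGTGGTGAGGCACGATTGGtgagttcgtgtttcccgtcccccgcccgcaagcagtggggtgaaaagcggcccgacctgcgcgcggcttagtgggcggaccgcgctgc
Dnajc3, chr14:118937682-118937931, forward strand: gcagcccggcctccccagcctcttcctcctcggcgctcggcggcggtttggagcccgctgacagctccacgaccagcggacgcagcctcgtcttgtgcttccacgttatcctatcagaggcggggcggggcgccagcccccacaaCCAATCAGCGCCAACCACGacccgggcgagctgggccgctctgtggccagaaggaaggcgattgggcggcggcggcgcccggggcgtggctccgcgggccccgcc
Derl3, chr10:75893148-75893397, forward strand: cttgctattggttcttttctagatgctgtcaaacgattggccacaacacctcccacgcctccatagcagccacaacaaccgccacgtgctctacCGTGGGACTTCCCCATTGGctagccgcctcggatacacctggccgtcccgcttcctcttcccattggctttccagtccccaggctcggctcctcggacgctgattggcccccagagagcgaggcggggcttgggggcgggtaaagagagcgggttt
Herpud1, chr8:94386179-94386428, forward strand: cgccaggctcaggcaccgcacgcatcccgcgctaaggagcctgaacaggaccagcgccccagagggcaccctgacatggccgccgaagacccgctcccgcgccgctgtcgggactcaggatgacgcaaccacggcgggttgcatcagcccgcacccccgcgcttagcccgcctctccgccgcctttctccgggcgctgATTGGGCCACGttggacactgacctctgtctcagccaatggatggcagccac
Pdia2, chr17:26199088-26199337, reverse strand: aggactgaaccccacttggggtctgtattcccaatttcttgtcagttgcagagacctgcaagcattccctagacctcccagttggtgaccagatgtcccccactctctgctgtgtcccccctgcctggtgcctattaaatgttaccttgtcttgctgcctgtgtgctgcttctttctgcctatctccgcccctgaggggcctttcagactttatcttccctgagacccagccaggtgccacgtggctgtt
The ERSE of Hspa5 lies at -65 to -47 from the annotated start and those of Hsp90b1 at -212 to -194 and, on the opposite strand, at -107 to -89. In Dnajc3 the site is at -105 to -87, in Derl3 at -156 to -138 on the opposite strand, and the ERSE-II of Herpud1 is at -52 to -42. A match says only that these letters are present, and sites that depart from them were not sought.

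The libraries held 374432 to 647947 counts in KPC ASC KO mice, 452472 to 1626977 in KPC mice and 294077 to 416879 in WT mice. Levels are given in CPM, counts scaled to a common library size. Pycard had 5.56 to 34.2 CPM in KPC ASC KO mice, below the 35.1 to 99.5 of KPC mice and the 45.4 to 65.5 of WT mice, and the labels do not say which exons were deleted. The combined transcripts of 33 acinar enzyme genes came to 49.5% ± 11.4 (SD, n = 5) of a library in KPC ASC KO mice, 17.9% ± 14.2 (SD, n = 7) in KPC mice and 55.2% ± 4.19 (SD, n = 6) in WT mice, and no library had less than 4.59%. The 11 plasma cell genes other than Xbp1 summed to 1766 to 3227 CPM in KPC ASC KO mice, 1725 to 19870 in KPC mice and 1740 to 2239 in WT mice, and KPC mice 40, 89, 145 and 154 had 13603 to 19870. Macrophage genes averaged 1673, 4334 and 704 CPM in KPC ASC KO, KPC and WT mice, and fibroblast genes 1866, 4022 and 719. In whole pancreas, fewer cells of a type and less RNA per cell cannot be told apart.

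Since acinar enzymes took unequal shares of the libraries, each comparison was made under 2 scalings. Trimmed mean of M values (TMM) sets the bulk of genes level between libraries, and the median log2 fold change of the 6920 genes was then 0.06 for KPC over WT, -0.05 for KPC ASC KO over KPC and 0.00 for KPC ASC KO over WT. Scaling by total counts takes each library as a whole, enzymes included, and the same medians became 1.41, -1.14 and 0.24. Values below are TMM-scaled CPM unless total counts are named, and a gene is called higher or lower at an adjusted p under 0.05 in edgeR's quasi-likelihood test over the 6920 genes. A lower call under TMM therefore says that a gene fell relative to most genes of the library. Gene positions are those of the deposited table on GRCm38. Each p sets the difference between groups against the spread between mice. The labels name neither litter nor batch, so any part of these in a difference cannot be told apart from genotype.

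As a share of all counts, the ER genes as a body were similar in the 3 groups. The 36 genes took 0.666% ± 0.0262 (SD, n = 5) of counts in KPC ASC KO mice, 0.688% ± 0.100 (SD, n = 7) in KPC mice and 0.690% ± 0.0844 (SD, n = 6) in WT mice, and the ranges overlapped. Set against the counts left after the acinar enzymes are taken out, the shares were 1.36% ± 0.251, 0.880% ± 0.311 and 1.54% ± 0.123. Per 100 counts of acinar enzymes, the ER genes had 1.42 ± 0.406 counts in KPC ASC KO mice, 6.38 ± 4.25 in KPC mice and 1.26 ± 0.230 in WT mice. ER gene transcripts in KPC pancreas were thus fewer relative to the non-enzyme transcripts and more relative to the enzyme transcripts. The mean log2 CPM of the 33 tested genes, used as a score per mouse, was 7.20 ± 0.246 in KPC ASC KO mice, 6.58 ± 0.475 in KPC mice and 7.37 ± 0.146 in WT mice under TMM. Under total counts the order of KPC was turned round, at 6.86 ± 0.240, 7.31 ± 0.147 and 6.85 ± 0.157.

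**Figure D1:**
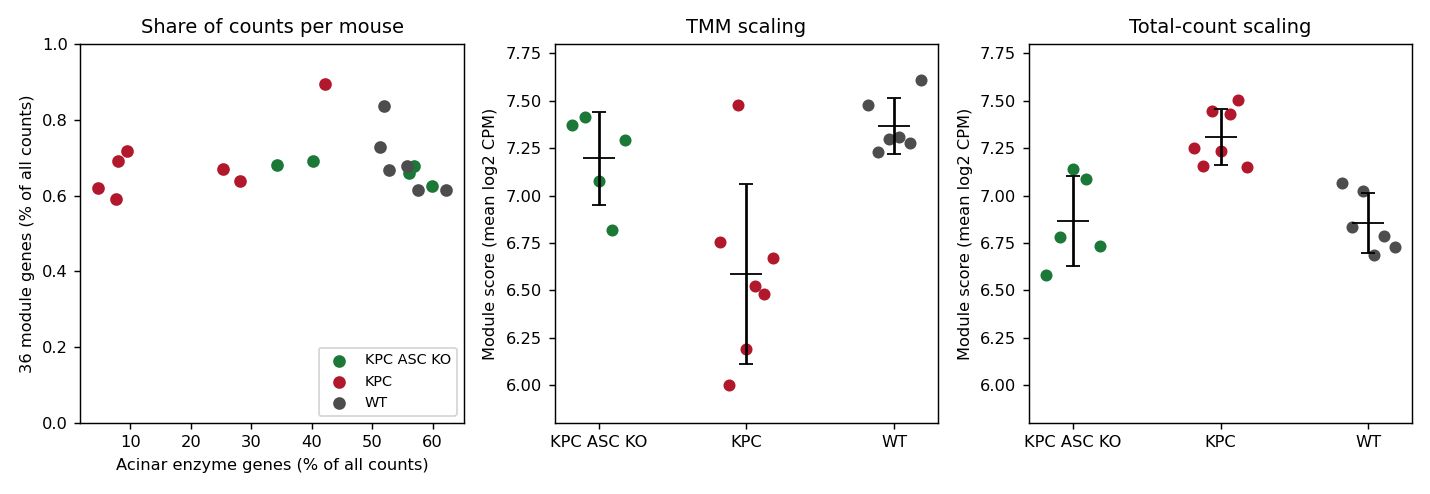
Left, the 36 ER genes as a percentage of all counts (y axis) against the 33 acinar enzyme genes as a percentage of all counts (x axis), 1 point per mouse; middle and right, the mean log2 CPM of the 33 tested ER genes per mouse under TMM and total-count scaling, with the group mean and SD. The ER share stays between 0.590% and 0.893% across mice whose acinar share runs from 4.59% to 62.3%, and KPC mice average 6.58 under TMM and 7.31 under total counts.

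Under TMM the score ran broadly with the acinar share among KPC and among KPC ASC KO mice. Among KPC mice, mouse 43 had the lowest acinar share at 4.59% and the lowest score at 6.00, while mouse 48 had the highest share at 42.3% and the highest score at 7.48. Mice 89, 154 and 145, at 7.56%, 7.88% and 9.44%, scored 6.19, 6.48 and 6.52, and mice 40 and 210, at 25.3% and 28.1%, scored 6.75 and 6.67. The KPC ASC KO mice 384 and 377, at 34.3% and 40.2%, scored 6.82 and 7.08, lower than mice 388, 335 and 318, at 56.0% to 59.9%, which scored 7.29 to 7.42. WT mice scored 7.23 to 7.61 at 51.2% to 62.3%. Under total counts the scores did not run this way. The KPC ASC KO mice 384 and 377 then scored 7.09 and 7.14, higher than mice 388, 335 and 318 at 6.73, 6.78 and 6.58. Among KPC mice, mouse 154 was then highest at 7.51 and mouse 210 lowest at 7.152. KPC mice 43 and 48, with the lowest and highest acinar share, scored 7.154 and 7.45. Enzyme and ER counts come from the same libraries, and the part of the acinar share in these scores was not tested.

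**Figure D2:**
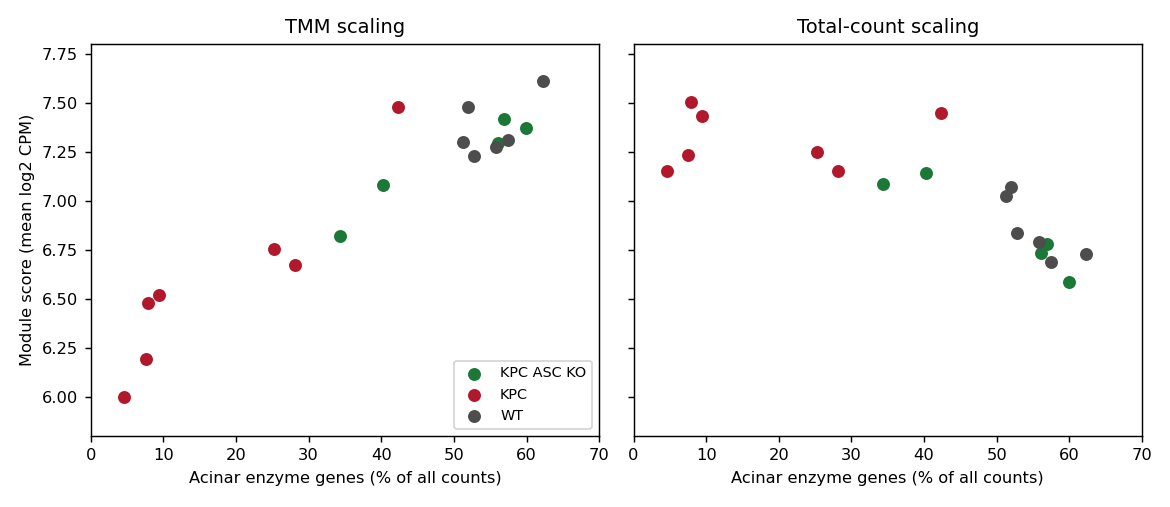
Mean log2 CPM of the 33 tested ER genes (y axis) against the 33 acinar enzyme genes as a percentage of all counts (x axis), 1 point per mouse, under TMM (left) and total-count scaling (right). Under TMM the points climb from KPC mouse 43 at 6.00 to WT mouse 1238 at 7.61, and under total counts the KPC mice, at 7.15 to 7.51, lie above all KPC ASC KO and WT mice, none of which exceeds 7.14.

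KPC pancreas was compared with WT pancreas first. Relative to most genes, 16 of the 33 tested ER genes fell and 1 rose in KPC mice under TMM, and 16 were not called. The 16 make 48.5% of the tested ER genes, beside 15.1% of all 6920 genes called lower, and the 1 higher makes 3.03%, beside 14.8%. By role, 6 of 8 ERAD genes were lower, as were the sensors and transcription factors in 3 of 5, the lumen chaperones in 4 of 9, the disulfide isomerases in 3 of 9 and the lectin chaperones in 0 of 2. The median log2 fold change of the 33 genes was -0.75, beside 0.06 for all genes. Under total counts 16 were higher (48.5%, beside 79.6% of all genes) and 5 lower (15.2%, beside 2.54%), with a median of 0.57 beside 1.41 for all genes. Relative to the median gene, a measure that a change of scaling leaves nearly as it is by construction, 26 of 33 lay below it, and Hsp90b1, Dnajc10, Pdia3, Pdia4, Erp29, Txndc5 and Ddit3 above it. Pdia2, Erp27, Sel1l, Derl3 and Edem2 were called lower and Pdia3 higher whichever scaling was used. With the acinar enzyme level of each mouse as a covariate no ER gene and no other gene was called in this comparison, and that level does not overlap between KPC and WT mice, so the level and the genotype cannot be told apart there. Without KPC mice 40, 89, 145 and 154, 4 of the 16 lower calls were kept, those of Eif2ak3, Edem2, Atf4 and P4hb, together with the higher call of Pdia3. In that fit 346 of 5852 genes were called lower and 406 higher.

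KPC ASC KO pancreas was then compared with KPC pancreas. Under TMM 9 of the 33 genes rose in KPC ASC KO mice (27.3%, beside 6.73% of all genes) and none fell (beside 2.69%), with a median log2 fold change of 0.39 beside -0.05 for all genes. These were Xbp1, Eif2ak3 and Atf4 among the sensors and factors, Erp27, P4hb and Pdia2 among the isomerases, Edem2 and Sel1l in ERAD, and the cochaperone Dnajc3. All 9 are among the 16 that were lower in KPC than in WT mice, a count that shares the KPC mice between both comparisons. Under total counts 3 were higher (9.09%, beside 2.05%), namely Pdia2, Erp27 and Sel1l, and 17 lower (51.5%, beside 73% of all genes), with a median of -0.69 beside -1.14. Xbp1, Eif2ak3 and Erp27 kept their TMM calls whichever mouse was left out, while of the 18 such fits P4hb was called in 16, Edem2 in 15, Dnajc3 in 12, Atf4 in 9, Sel1l in 7 and Pdia2 in 5. The count of higher calls was 16 without KPC mouse 48, beside 675 of 7041 genes, and 5 without KPC mouse 89, 145 or 154, beside 260 to 265 of 6231 to 6280. It was 3 without KPC ASC KO mouse 318 (beside 166 of 7514) or 335 (139 of 7810) and 4 without mouse 388 (180 of 7809). The calls over all genes thus rose and fell as well. The count of ER genes was 0 with the acinar level as a covariate, where none of the 6920 genes was called. It was also 0 without KPC mice 40, 89, 145 and 154, where 1 of 5852 genes was called.

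No difference in these genes was called between KPC ASC KO and WT pancreas. None of the 33 was called in either direction under TMM or total counts, and the medians were -0.18 and 0.01. Among all genes 0% were called higher and 0% lower under TMM in edgeR, where 691 genes had an unadjusted p under 0.05, while DESeq2 called 3 genes higher and 5 lower, none of them an ER gene, and limma-voom called 0. Under total counts 0% were called higher and 0.0145% lower, which is 1 gene. The smallest adjusted p among the ER genes under TMM was that of Creld2, at -0.76 (SE 0.33, adjusted p = 0.453), followed by Hspa5 at -0.48 (SE 0.27, adjusted p = 0.556). The standard errors, 0.18 to 0.71 as derived from the F statistic of each test, leave room for differences that this number of mice did not resolve.

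**Figure D3:**
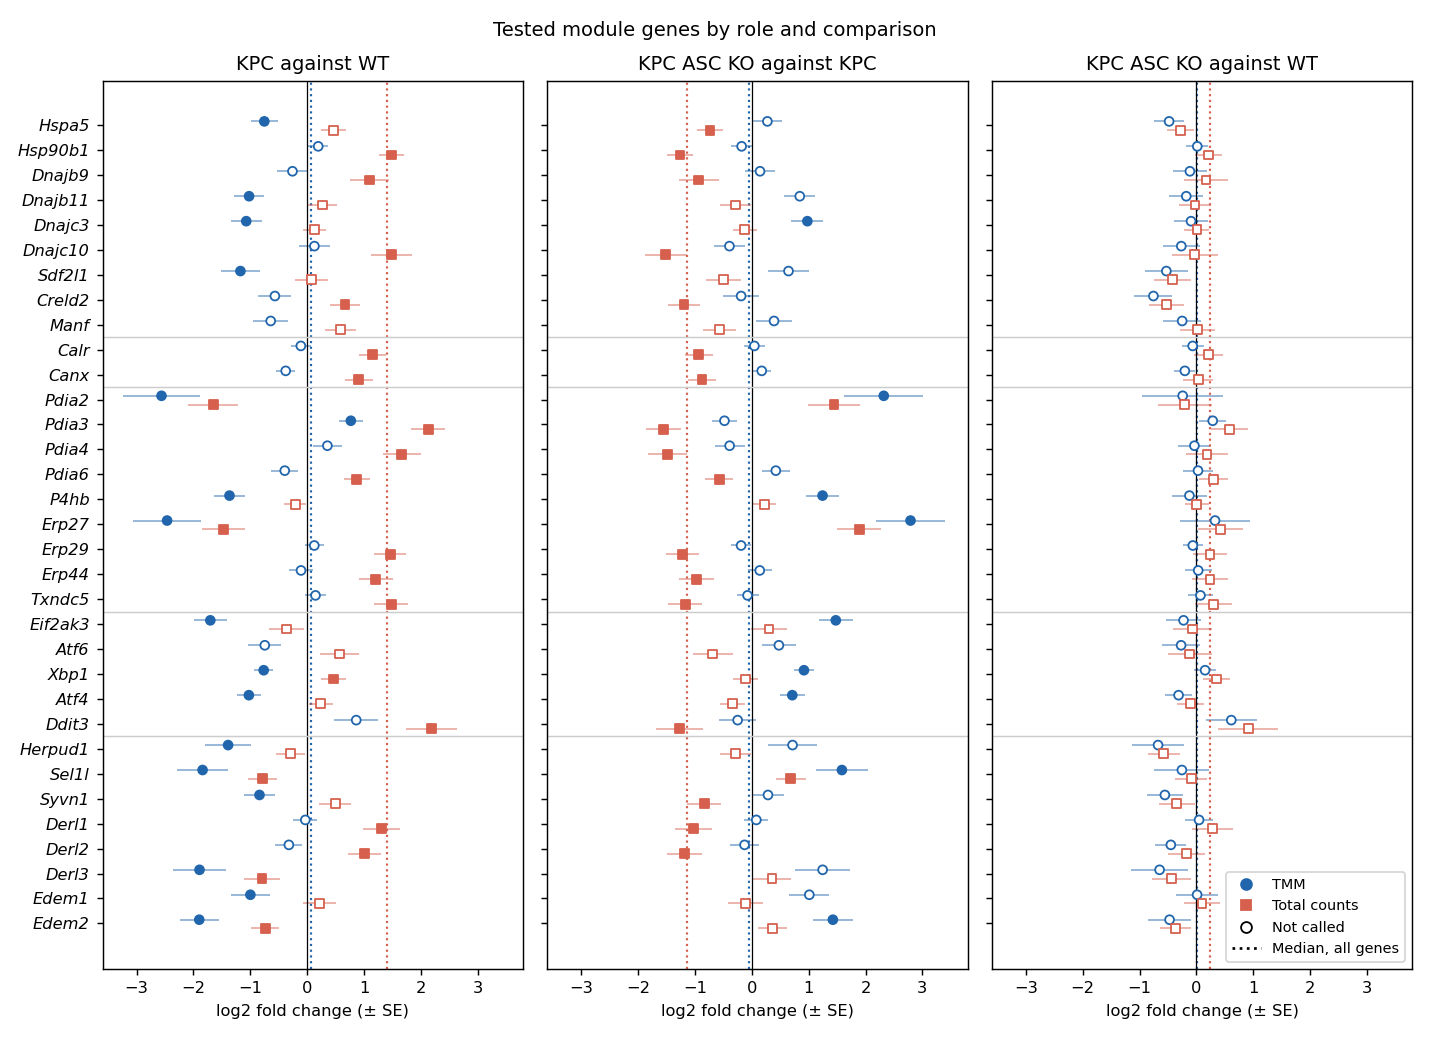
Log2 fold change (x axis) with its standard error for each of the 33 tested ER genes (rows, grouped by role with grey lines), for KPC over WT, KPC ASC KO over KPC and KPC ASC KO over WT, under TMM (blue circles) and total counts (red squares). Filled symbols were called at an adjusted p under 0.05 and dotted lines mark the median of all 6920 genes, which lies at 1.41 for KPC against WT under total counts.

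The sensors and transcription factors set the response, and their values are given first, those of KPC ASC KO mice in the order 318, 335, 377, 384 and 388. Eif2ak3 had 68.4, 46.9, 53.8, 24.1 and 118 CPM in KPC ASC KO mice, against a median of 21.7 CPM in KPC mice (15.5 to 28.8) and of 64.3 CPM in WT mice (46.6 to 112). Eif2ak3 (chr6:70844515-70905245) encodes PERK, the kinase that slows translation and favours synthesis of ATF4. All 7 KPC mice lay below all 6 WT mice, and KPC ASC KO mouse 384 lay inside the KPC range while the other 4 did not. The log2 fold change was -1.70 (SE 0.29, adjusted p = 0.000244) for KPC against WT and 1.48 (SE 0.30, adjusted p = 0.00626) for KPC ASC KO against KPC. Under total counts the groups overlapped and neither was called, at -0.37 (SE 0.31, adjusted p = 0.257) and 0.30 (SE 0.32, adjusted p = 0.373). These values rest on 12 to 29 counts per library in KPC ASC KO mice, 12 to 50 in KPC mice and 11 to 33 in WT mice. A small nucleolar RNA gene of 54 counts lies inside Eif2ak3 on the same strand.

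Xbp1 (chr11:5520659-5525893), the factor of ER expansion that the IRE1 branch splices into its active form, was measured here without regard to splicing. The levels of Xbp1 were 715, 461, 588, 508 and 638 CPM in KPC ASC KO mice, 198 to 456 CPM (median 300.1) in KPC mice and 446 to 657 CPM (median 522) in WT mice. All 5 KPC ASC KO mice lay above all 7 KPC mice, the highest of which was mouse 48, and 6 of 7 KPC mice lay below every WT mouse. The log2 fold change was -0.76 (SE 0.17, adjusted p = 0.00239) for KPC against WT and 0.92 (SE 0.18, adjusted p = 0.00552) for KPC ASC KO against KPC. Under total counts Xbp1 was instead called higher in KPC than in WT mice, at 0.46 (SE 0.22, adjusted p = 0.0482), and was not called between KPC ASC KO and KPC mice, at -0.11 (SE 0.22, adjusted p = 0.642). Plasma cells also express Xbp1, and their markers were highest in KPC mice 40, 89, 145 and 154, which had 373, 198, 300 and 276 CPM of Xbp1 under TMM, where KPC mouse 48 was highest, and 525.7, 414.6, 569.8 and 568.7 under total counts, where mice 145, 154 and 40 were the 3 highest KPC mice. The part of plasma cells in Xbp1 was not tested. Against WT, KPC ASC KO mice differed by 0.15 (SE 0.19, adjusted p = 0.838).

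Atf4 (chr15:80255184-80257541) encodes the factor made when PERK or a related kinase phosphorylates eIF2α. For Atf4, KPC ASC KO mice had 174, 219, 197, 121 and 236 CPM, KPC mice a median of 108 CPM (72.1 to 189.6) and WT mice a median of 219 CPM (179 to 333). Mouse 48 was the KPC mouse that overlapped the WT range, and KPC ASC KO mice spanned both groups. Atf4 fell in KPC against WT mice, with a log2 fold change of -1.03 (SE 0.21, adjusted p = 0.0011), and rose in KPC ASC KO against KPC mice, with 0.71 (SE 0.22, adjusted p = 0.0407), and under total counts neither was called, at 0.24 and -0.34. The second of these calls was lost in 9 of the 18 fits that left out a mouse, with adjusted p up to 0.127. Against WT, KPC ASC KO mice differed by -0.31 (SE 0.23, adjusted p = 0.665).

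Ddit3 (chr10:127290774-127296288), which encodes CHOP, the death-promoting factor induced by ATF4, had 229 counts over all libraries. Ddit3 had 11.4, 11.7, 16.7, 24.1 and 8.44 CPM in KPC ASC KO mice, against a median of 17.0 CPM in KPC mice (14.9 to 28.8) and of 9.81 CPM in WT mice (3.40 to 20.2). The groups overlapped, although 4 of 6 WT mice lay below every KPC mouse. Ddit3 was not called under TMM, at 0.86 (SE 0.38, adjusted p = 0.0905) for KPC over WT, -0.25 (SE 0.33, adjusted p = 0.791) for KPC ASC KO over KPC and 0.61 (SE 0.45, adjusted p = 0.66) for KPC ASC KO over WT. Under total counts all 7 KPC mice lay above all WT mice, at 2.18 (SE 0.45, adjusted p = 0.000189). These values rest on 1 to 4 counts per WT library, and Ddit3 overlaps Mars1, with 268 counts, on the opposite strand, so they are uncertain where counting ignored strand. Atf6, sensor and factor in one protein, had 20.4 to 46.9 CPM in KPC ASC KO, 18.6 to 34.5 in KPC and 10.3 to 55.1 in WT mice and was not called, at -0.75 (SE 0.29, adjusted p = 0.0545) for KPC against WT. Ern1, which encodes IRE1, and Trib3, a pseudokinase induced by CHOP, had 125 and 51 counts over all libraries and were not tested. Ern1 averaged 6.45 ± 4.44 CPM in KPC ASC KO, 8.64 ± 3.06 in KPC and 13.6 ± 6.47 in WT mice.

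Of the chaperones of the ER lumen, BiP fell in KPC mice under TMM and its partner GRP94 was not called. The levels of Hspa5 were 487, 391, 362, 315 and 388 CPM in KPC ASC KO mice, 212 to 689 CPM (median 255) in KPC mice and 372 to 711 CPM (median 538) in WT mice. Hspa5 (chr2:34771970-34777547) separated 6 of 7 KPC mice from all WT mice, mouse 48 alone being inside the WT range with 689 CPM. Under TMM it fell in KPC against WT mice, with a log2 fold change of -0.75 (SE 0.24, adjusted p = 0.0224), a call lost without WT mouse 69 or 1238, and it was 0.46 (adjusted p = 0.051) under total counts. KPC ASC KO mice were not called against KPC mice, at 0.27 (SE 0.25, adjusted p = 0.519), and under total counts they were lower, at -0.74 (SE 0.23, adjusted p = 0.00813). Hsp90b1, which encodes GRP94, the ER member of the HSP90 family, had 405, 434, 336, 308 and 380.0 CPM in KPC ASC KO mice, a median of 402 CPM in KPC mice (288 to 631) and of 366 CPM in WT mice (299 to 444). Its groups overlapped throughout under TMM, at 0.19 (SE 0.18, adjusted p = 0.427) for KPC against WT and -0.18 (SE 0.19, adjusted p = 0.572) for KPC ASC KO against KPC. Under total counts every KPC mouse lay above every WT and KPC ASC KO mouse. Hsp90b1 was then higher in KPC than in WT mice, at 1.48 (SE 0.22, adjusted p = 1.82e-05), beside a median of 1.41 for all genes. It was lower in KPC ASC KO than in KPC mice, at -1.26 (SE 0.24, adjusted p = 0.00111), beside a median of -1.14.

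The cochaperones that deliver clients to BiP moved unequally. For Dnajc3, KPC ASC KO mice had 427, 422, 182, 189 and 342 CPM, KPC mice a median of 127 CPM (104 to 338) and WT mice a median of 312 CPM (252 to 453). Dnajc3 (chr14:118937976-118981697) encodes p58IPK, a lumenal J protein that also restrains PERK. Mouse 48 was the only KPC mouse inside the WT range, and KPC ASC KO mice 377 and 384 had the lowest values of their group. Dnajc3 fell in KPC mice, -1.07 (SE 0.27, adjusted p = 0.00588), and rose in KPC ASC KO mice, 0.98 (SE 0.28, adjusted p = 0.0336), while under total counts neither was called, at 0.13 and -0.12. The rise was called in 12 of the 18 fits that left out a mouse, with adjusted p up to 0.124. Dnajb11 had 96.9, 148, 70.5, 42.7 and 84.4 CPM in KPC ASC KO mice, against a median of 50.3 CPM in KPC mice (24.4 to 74.4) and of 90.7 CPM in WT mice (80.6 to 129). Dnajb11 (chr16:22857845-22879634), the J protein ERdj3, was lower in every KPC than in every WT mouse, -1.02 (SE 0.27, adjusted p = 0.00667), and KPC ASC KO over KPC was not called, 0.84 (SE 0.28, adjusted p = 0.0529). The levels of Sdf2l1 were 122, 113, 61.2, 35.2 and 122 CPM in KPC ASC KO mice, 27.7 to 122 CPM (median 52.8) in KPC mice and 72.4 to 187 CPM (median 114) in WT mice. Sdf2l1 (chr16:17130138-17132383), which works with ERdj3, fell in KPC mice, -1.17 (SE 0.34, adjusted p = 0.0138), with mice 48 and 154 inside the WT range, and was not called in KPC ASC KO against KPC mice, 0.65 (SE 0.36, adjusted p = 0.259).

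The remaining lumen genes were not called under TMM in any comparison. Under total counts Dnajb9, Dnajc10 and Creld2 were higher in KPC than in WT mice, at 1.10, 1.49 and 0.66, as were 79.6% of all genes. They were lower in KPC ASC KO than in KPC mice, at -0.93, -1.51 and -1.19, as were 73% of all genes. Manf was called in neither comparison. Dnajb9 (ERdj4, a brake on IRE1) averaged 36.5 ± 15.4 CPM in KPC ASC KO, 34.7 ± 7.23 in KPC and 41.6 ± 12.6 in WT mice. Dnajc10 (ERdj5, a disulfide reductase of ERAD) averaged 29.1 ± 5.21, 38.2 ± 7.798 and 36.2 ± 21.2 CPM in the same groups. Creld2, a secreted stress protein, averaged 73.9 ± 11.4 CPM in KPC ASC KO, 86.2 ± 52.9 in KPC and 123 ± 35.6 in WT mice, with mouse 48 at 197 CPM above the other 6 KPC mice. Manf, a secreted protein that stabilises BiP with its clients, averaged 147 ± 5.88 CPM in KPC ASC KO, 115 ± 72.0 in KPC and 175 ± 77.0 in WT mice. Its KPC ASC KO mice lay within 141 to 156 CPM, above 6 of 7 KPC mice, yet the comparison was not called, 0.39 (SE 0.32, adjusted p = 0.456), and Manf overlaps Rbm15b on the same strand. Hyou1, the large HSP70-like exchange factor of BiP, had 171 counts over all libraries and was not tested, at 20.6 ± 6.91 CPM in KPC ASC KO, 9.12 ± 5.13 in KPC and 34.9 ± 27.3 in WT mice.

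The lectin chaperones calreticulin (Calr) and calnexin (Canx) were not called under TMM. Calr averaged 282 ± 37.4 CPM in KPC ASC KO, 275 ± 89.8 in KPC and 295 ± 54.7 in WT mice, and Canx 152 ± 18.3, 135 ± 32.9 and 175 ± 29.0 CPM (SD, n = 5, 7 and 6). For KPC over WT they stood at -0.11 (SE 0.18, adjusted p = 0.675) and -0.38 (SE 0.17, adjusted p = 0.0855), and for KPC ASC KO over KPC at 0.05 and 0.17. Under total counts both were higher in KPC than in WT mice, by 1.15 and 0.91, less than the median gene at 1.41. Lectin counts made up 5.06% ± 1.84 of the ER gene counts in KPC ASC KO mice, 8.92% ± 1.90 in KPC mice and 4.49% ± 0.405 in WT mice. A fall in the abundant Pdia2, described below, raises the share of all other ER genes.

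**Figure D4:**
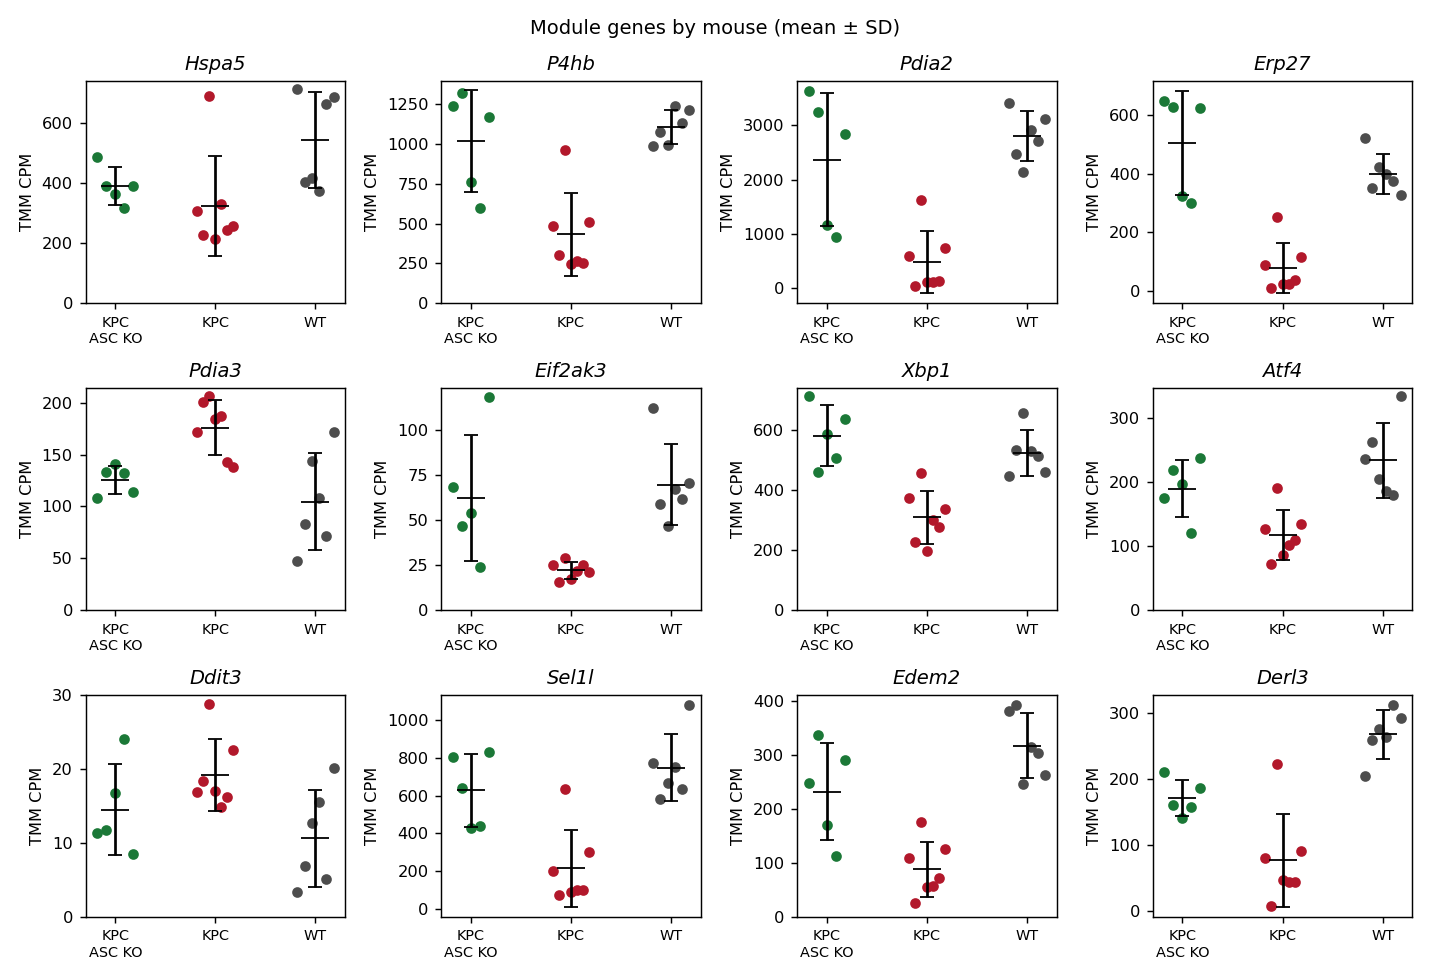
TMM-scaled CPM (y axes, linear) of 12 ER genes in each mouse of the KPC ASC KO (green, n = 5), KPC (red, n = 7) and WT (grey, n = 6) groups, with the mean and SD. Pdia2, Erp27, Sel1l, Edem2 and Derl3 are low in most KPC mice with mouse 48 highest, while Pdia3 is higher in KPC mice, at 138 to 206 CPM.

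The disulfide isomerase family split in KPC mice under TMM into 3 members that fell, 5 that were not called and Pdia3, which rose. Pdia2 (chr17:26195999-26199087), known as the pancreas-specific isomerase, and Erp27 (chr6:136907311-136922180), a relative without a catalytic cysteine pair that binds unfolded chains and is abundant in pancreas, fell furthest of the 33 tested genes in KPC mice. Pdia2 had 3630.0, 3251, 1162, 949.6 and 2846 CPM in KPC ASC KO mice, against a median of 128 CPM in KPC mice (47.9 to 1615) and of 2811 CPM in WT mice (2133 to 3419.8). Every KPC mouse was below every WT mouse, with mouse 43 lowest and mouse 48 highest among KPC mice, and KPC ASC KO mice 377 and 384 had less than the other 3. The log2 fold change was -2.56 (SE 0.68, adjusted p = 0.0105) for KPC against WT and 2.32 (SE 0.69, adjusted p = 0.0468) for KPC ASC KO against KPC, and under total counts -1.65 (SE 0.44, adjusted p = 0.002) and 1.45 (SE 0.45, adjusted p = 0.00893). The rise in KPC ASC KO mice was called in 5 of the 18 fits that left out a mouse. For Erp27, KPC ASC KO mice had 647, 629, 323, 299 and 624.9 CPM, KPC mice a median of 35.4 CPM (9.64 to 252) and WT mice a median of 386 CPM (328 to 521). All 7 KPC mice lay below all KPC ASC KO and all WT mice. The log2 fold change was -2.46 (SE 0.59, adjusted p = 0.00619) and 2.79 (SE 0.61, adjusted p = 0.0137) in the same order, and -1.47 (SE 0.37, adjusted p = 0.00132) and 1.89 (SE 0.39, adjusted p = 0.0013) under total counts. Against WT, KPC ASC KO mice differed by -0.24 (SE 0.71, adjusted p = 0.946) for Pdia2 and 0.33 (SE 0.61, adjusted p = 0.908) for Erp27.

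P4hb (chr11:120560298-120573253), the founding isomerase of the family and a subunit of collagen prolyl hydroxylase, followed the same course to a smaller extent. The levels of P4hb were 1242, 1324, 759, 599 and 1170.0 CPM in KPC ASC KO mice, 247 to 965 CPM (median 304) in KPC mice and 990.2 to 1238 CPM (median 1106) in WT mice. KPC and WT mice did not overlap, and KPC ASC KO mice 377 and 384 lay below KPC mouse 48 and above the other 6 KPC mice. P4hb fell in KPC mice, -1.37 (SE 0.28, adjusted p = 0.0015), and rose in KPC ASC KO mice, 1.24 (SE 0.29, adjusted p = 0.0141), and neither was called under total counts, at -0.21 and 0.22. Pdia3 (chr2:121413775-121438687), the isomerase that works with calnexin and calreticulin and in the MHC class I loading complex, moved the other way. For Pdia3, KPC ASC KO mice had 108, 133, 141, 132 and 114 CPM, KPC mice a median of 184 CPM (138 to 206) and WT mice a median of 95.6 CPM (47.6 to 172). WT mice were the most spread, and the highest of them overlapped the KPC range while KPC ASC KO mice overlapped it at its lower end. Pdia3 rose in KPC mice, 0.77 (SE 0.21, adjusted p = 0.00936) under TMM and 2.13 (SE 0.30, adjusted p = 1.38e-05) under total counts. The fall in KPC ASC KO against KPC mice was called under total counts, at -1.55 (SE 0.31, adjusted p = 0.00124), and not under TMM, at -0.48 (SE 0.21, adjusted p = 0.153).

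The other isomerases were not called under TMM. For KPC against WT, Pdia4 stood at 0.36 (SE 0.26, adjusted p = 0.312), Pdia6 at -0.39 (SE 0.24, adjusted p = 0.214) and Erp29, a chaperone with no active cysteine pair, at 0.13 (SE 0.16, adjusted p = 0.598). Erp44, which retains unassembled proteins from the early Golgi, stood at -0.11 (SE 0.21, adjusted p = 0.73) and Txndc5 at 0.15 (SE 0.19, adjusted p = 0.662). For KPC ASC KO against KPC their log2 fold changes were -0.39 for Pdia4, 0.42 for Pdia6, -0.19 for Erp29, 0.14 for Erp44 and -0.07 for Txndc5. Under total counts all of these were called higher in KPC than in WT mice, from 0.87 (Pdia6) to 1.67 (Pdia4), as were 79.6% of all genes. They were called lower in KPC ASC KO than in KPC mice, from -1.48 (Pdia4) to -0.58 (Pdia6), as were 73% of all genes. Isomerase counts were 50.1% ± 5.19 of the ER gene counts in KPC ASC KO mice, 37.7% ± 3.78 in KPC mice and 48.9% ± 2.29 in WT mice. The KPC range of this share, 32.5% to 41.2%, lay below those of KPC ASC KO mice, 44.5% to 54.7%, and WT mice, 46.8% to 53.2%. Pdia2 alone had 512 to 1274 counts per library in KPC ASC KO mice, 154 to 673 in KPC mice and 503 to 1005 in WT mice. All ER genes together had 2466 to 4044, 3305 to 10078 and 1957 to 3490. The share therefore depends heavily on Pdia2 and does not show a fall of the family at large.

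In ERAD the ubiquitin ligase complex and the mannose-trimming lectins fell in KPC mice under TMM, while the broadly expressed derlins were not called. Sel1l had 804, 641, 427, 438 and 832 CPM in KPC ASC KO mice, against a median of 102 CPM in KPC mice (72.7 to 634) and of 709.6 CPM in WT mice (579 to 1081). Sel1l (chr12:91806043-91849157) is the adaptor that holds the ligase HRD1 in place. KPC mice other than mouse 48 had at most 299 CPM, below every WT and KPC ASC KO mouse. Sel1l fell in KPC mice, -1.84 (SE 0.45, adjusted p = 0.00662) under TMM and -0.78 (SE 0.26, adjusted p = 0.00769) under total counts, and rose in KPC ASC KO mice, 1.59 (SE 0.46, adjusted p = 0.0428) and 0.69 (SE 0.27, adjusted p = 0.0243). Under TMM that rise was called in 7 of the 18 fits that left out a mouse, with adjusted p up to 0.115. Syvn1, which encodes HRD1, fell less, -0.84 (SE 0.27, adjusted p = 0.0238) in KPC against WT mice, from a base of 9 to 23 counts per WT library. KPC ASC KO mice averaged 53.1 ± 18.0 CPM of Syvn1, KPC mice 44.1 ± 15.8 and WT mice 77.7 ± 26.6, and Syvn1 lost its call without WT mouse 1213 or 1238 or KPC mouse 89.

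The levels of Edem2 were 248, 336, 171, 113 and 291 CPM in KPC ASC KO mice, 25.8 to 175 CPM (median 71.9) in KPC mice and 246 to 393 CPM (median 309) in WT mice. Edem2 (chr2:155701677-155729475) starts the mannose trimming that marks glycoproteins for disposal. All KPC mice lay below all WT mice. It fell in KPC mice, -1.90 (SE 0.35, adjusted p = 0.000857), also under total counts, -0.74 (SE 0.25, adjusted p = 0.00847), and rose in KPC ASC KO mice, 1.43 (SE 0.36, adjusted p = 0.02), which was not called under total counts, 0.37 (SE 0.26, adjusted p = 0.184). For Edem1, KPC ASC KO mice had 202, 207, 109.5, 83.5 and 211 CPM, KPC mice a median of 91.0 CPM (23.3 to 132) and WT mice a median of 134 CPM (111 to 286). Edem1, its stress-induced relative, fell in KPC mice, -0.999 (SE 0.34, adjusted p = 0.0323), a call lost without WT mouse 69 or KPC mouse 89 or 154, and was not called in KPC ASC KO mice, 1.01 (SE 0.35, adjusted p = 0.0722). Herpud1 had 322, 453, 241, 100.2 and 253 CPM in KPC ASC KO mice, against a median of 104 CPM in KPC mice (74.4 to 482) and of 403 CPM in WT mice (299 to 602). Herpud1 (chr8:94386438-94395377), the stress-induced scaffold of the HRD1 complex, fell in KPC mice, -1.39 (SE 0.41, adjusted p = 0.0181), with mouse 48 alone in the WT range, and was not called in KPC ASC KO mice, 0.72 (SE 0.43, adjusted p = 0.304).

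The derlins are membrane proteins of the channel through which clients leave the ER. The levels of Derl3 were 211, 160.2, 141, 158 and 186 CPM in KPC ASC KO mice, 8.39 to 223 CPM (median 46.8) in KPC mice and 204 to 313 CPM (median 269) in WT mice. Derl3 (chr10:75893413-75895941), the derlin of secretory tissues, was lower in 6 of 7 KPC mice than in any KPC ASC KO or WT mouse, and 4 of 5 KPC ASC KO mice were below every WT mouse. It fell in KPC against WT mice, -1.89 (SE 0.47, adjusted p = 0.00678) under TMM and -0.79 (SE 0.32, adjusted p = 0.0239) under total counts, and the comparison of KPC ASC KO with KPC mice was not called, 1.25 (SE 0.48, adjusted p = 0.113). Derl1 and Derl2 stood at -0.03 (SE 0.21, adjusted p = 0.928) and -0.32 (SE 0.24, adjusted p = 0.313) for KPC against WT under TMM. Under total counts both were higher in KPC than in WT mice, at 1.31 and 1.01, as were 79.6% of all genes. Both were lower in KPC ASC KO than in KPC mice, at -1.02 and -1.18, as were 73% of all genes. Derl1 averaged 59.2 ± 11.8 CPM in KPC ASC KO, 55.1 ± 14.5 in KPC and 56.7 ± 5.13 in WT mice, and Derl2 54.5 ± 8.66, 60.1 ± 18.9 and 73.6 ± 27.0 CPM.

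A ratio of 2 genes inside a library is free of scaling, so 6 pairs with related tasks were compared. Exact two-sided permutation tests over mice were used, 18 tests in all with Benjamini-Hochberg adjustment. The genes were chosen with earlier results of these data known. The adjusted p-values therefore describe these mice and are not an independent test. The log2 ratio of Erp27 to Pdia3 averaged 1.92 ± 0.682 in KPC ASC KO mice, -1.90 ± 1.68 in KPC mice and 2.02 ± 0.834 in WT mice (SD, n = 5, 7 and 6). All KPC mice lay below all others, and the exact permutation test gave an adjusted p = 0.00911 for KPC against WT (difference -3.92) and 0.00911 for KPC ASC KO against KPC (3.82). Pdia2 to P4hb averaged 1.08 ± 0.417 in KPC ASC KO, -0.62 ± 1.21 in KPC and 1.32 ± 0.242 in WT mice, with differences of -1.94 (exact permutation, adjusted p = 0.00911) and 1.70 (0.0284). Derl3 to Derl2 averaged 1.63 ± 0.366, -0.12 ± 1.24 and 1.91 ± 0.7004, with differences of -2.03 (exact permutation, adjusted p = 0.00911) and 1.75 (0.0189). With 1 mouse left out, the KPC ASC KO minus KPC call passed in 8 of 12 tests for Pdia2 to P4hb (adjusted p up to 0.0727), in 11 of 12 for Derl3 to Derl2 (up to 0.0623, without KPC ASC KO mouse 318) and in 12 of 12 for Erp27 to Pdia3, in exact permutation tests. In each of these pairs the gene known from secretory tissue was low in KPC mice relative to its broadly expressed partner. The acinar share was also lowest in KPC mice, at 4.59% to 42.3%, and its part in the ratios was not tested.

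The ratio of Hspa5 to Hsp90b1 passed the threshold in all 3 comparisons, although 1 of them alone held without every single mouse. It averaged 0.06 ± 0.151 in KPC ASC KO, -0.44 ± 0.321 in KPC and 0.51 ± 0.334 in WT mice. The difference was -0.95 for KPC minus WT (exact permutation, adjusted p = 0.00911), 0.50 for KPC ASC KO minus KPC (0.0284) and -0.46 for KPC ASC KO minus WT (0.0304). The call for KPC minus WT was kept whichever mouse was left out. Both other calls were lost without any 1 of the 5 KPC ASC KO mice, with adjusted p of 0.0606 to 0.0727 for KPC ASC KO minus KPC and 0.0606 to 0.0771 for KPC ASC KO minus WT in exact permutation tests. No other of the 6 pairs passed between KPC ASC KO and WT mice. The smallest p these designs can give before adjustment is 0.000583 for KPC against WT, 0.00126 for KPC ASC KO against KPC and 0.00216 for KPC ASC KO against WT. Sdf2l1 to Dnajb11 and Xbp1 to Atf4 did not pass in any comparison, with adjusted p from 0.261 to 0.539 in exact permutation tests.

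**Figure D5:**
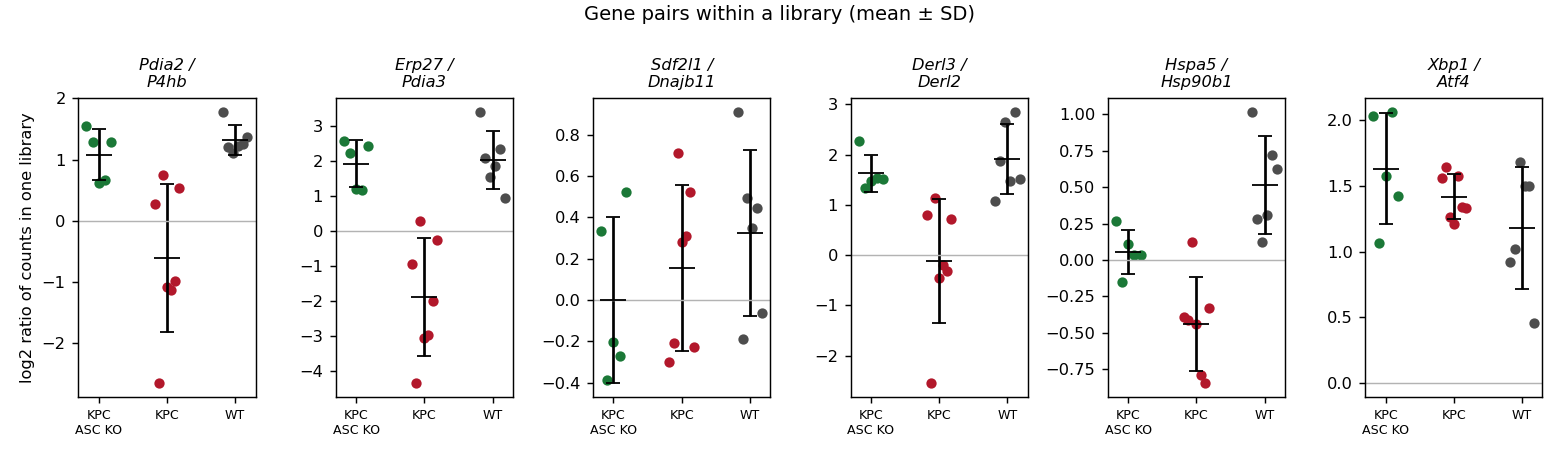
Log2 ratio of the counts of 2 ER genes in the same library (y axes, each on its own scale), 1 point per mouse with group mean and SD, for KPC ASC KO (green), KPC (red) and WT (grey) mice. Erp27 to Pdia3 averages 1.92 in KPC ASC KO, -1.90 in KPC and 2.02 in WT mice, and Xbp1 to Atf4 overlaps in all 3 groups.

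Genes with and without the promoter motifs had similar counts of lower calls. Of the 11 tested genes with ERSE or ERSE-II, 6 were lower in KPC than in WT mice under TMM, with a median log2 of -0.75. Of the 17 tested genes whose promoter was at hand and held neither, 9 were lower and 1 higher, with a median of -0.76. Of all genes 15.1% were lower and 14.8% higher. Under total counts 1 of the 11 was lower and 5 higher, and 3 of the 17 lower and 9 higher, beside 2.54% and 79.6% of all genes. Among the 6 promoters printed above, those of Hspa5, Dnajc3, Derl3 and Herpud1 belong to genes that fell under TMM. Hsp90b1, the only 1 of them with 2 exact ERSE matches, was not called under TMM at 0.19 and was higher under total counts at 1.48. Pdia2, with none, fell by the most under TMM at -2.56. In KPC ASC KO against KPC mice, 1 of the 11 was higher (median 0.28) and 7 of the 17 (median 0.65) under TMM, beside 6.73% of all genes. Under total counts 0 of the 11 were higher and 7 lower, and 2 of the 17 higher and 8 lower, beside 2.05% and 73% of all genes. These counts describe the lists and were not tested.

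Other genes of the pathway were taken from lists of known function, and their direction too depended on the scaling. Their counts stand beside the shares of all 6920 genes, which for KPC over WT were 15.1% lower and 14.8% higher under TMM and 2.54% lower and 79.6% higher under total counts. For KPC ASC KO over KPC they were 2.69% lower and 6.73% higher under TMM and 73% lower and 2.05% higher under total counts. Of 13 tested ER redox genes, 8 fell (61.5%) and 2 rose (15.4%) in KPC against WT mice under TMM, and 2 fell (15.4%) and 7 rose (53.8%) under total counts. The list was led by Selenos, a selenoprotein of ERAD, -1.27 (SE 0.22, adjusted p = 0.000271), and Prdx4, the ER peroxiredoxin, -1.83 (SE 0.33, adjusted p = 0.000754), which also fell under total counts, -0.67 (SE 0.23, adjusted p = 0.0108). In KPC ASC KO against KPC mice 4 of the 13 rose (30.8%) under TMM, led by the sulfhydryl oxidase Qsox1, 1.58 (SE 0.32, adjusted p = 0.00683), and Selenos, 1.05 (SE 0.23, adjusted p = 0.00798), whereas 1 rose and 7 fell under total counts. Of 7 prolyl isomerases and exchange factors, 4 fell (57.1%) in KPC mice and 3 rose (42.9%) in KPC ASC KO mice under TMM, while under total counts 1 fell and 2 rose in KPC mice and 1 fell in KPC ASC KO mice. Ppib, the ER cyclophilin, averaged 864 ± 189 CPM in KPC ASC KO, 469.7 ± 146 in KPC and 1113 ± 142 in WT mice. Its log2 fold change was -1.25 (SE 0.18, adjusted p = 8.05e-05) for KPC over WT and 0.88 (SE 0.19, adjusted p = 0.00872) for KPC ASC KO over KPC, and under total counts 0.00 and -0.19. Fkbp2, another ER prolyl isomerase, stood at -1.67 (SE 0.25, adjusted p = 0.000105) and 1.03 (SE 0.26, adjusted p = 0.0176).

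Of 8 genes of glycan quality control and ER export, 4 fell (50%) in KPC mice under TMM and 5 rose (62.5%) under total counts. Among the 4 were the cargo lectin Lman1, -1.36 (SE 0.22, adjusted p = 0.000189), and its partner Mcfd2, -1.16 (SE 0.34, adjusted p = 0.0146). Mcfd2 alone of the 8 rose in KPC ASC KO against KPC mice, 1.33 (SE 0.35, adjusted p = 0.0219), and 5 fell under total counts. Of 15 further ERAD genes, 6 fell (40%) in KPC mice under TMM, led by Ubxn4, -0.88 (SE 0.16, adjusted p = 0.000358), and the mannosidase-like Edem3, -1.87 (SE 0.36, adjusted p = 0.00075), whereas 11 rose (73.3%) under total counts. In KPC ASC KO mice 2 of these rose, the glycan lectin Os9, 0.96 (SE 0.25, adjusted p = 0.0184), and Edem3, 1.29 (SE 0.38, adjusted p = 0.0343), and 12 fell under total counts. Of 13 further UPR regulators, 5 fell (38.5%) and 1 rose (7.69%) in KPC mice under TMM, against 3 (23.1%) and 7 (53.8%) under total counts. Ccpg1 and Retreg1, receptors for autophagy of the ER, stood at -2.10 (SE 0.24, adjusted p = 2.04e-05) and -2.45 (SE 0.31, adjusted p = 3.2e-05) for KPC over WT and also fell under total counts, at -0.78 and -1.23. In KPC ASC KO over KPC, 4 of the 13 rose under TMM, led by the translocon subunit Sec62, 1.06 (SE 0.22, adjusted p = 0.00649), and Ccpg1, 1.21 (SE 0.25, adjusted p = 0.00683), and 1 rose and 6 fell under total counts.

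Among targets of ATF4 and CHOP, 9 of 19 tested fell (47.4%, beside 15.1% of all genes) and none rose (beside 14.8%) in KPC against WT mice under TMM, with a median log2 of -1.05. Under total counts 2 fell (10.5%, beside 2.54%) and 4 rose (21.1%, beside 79.6%). Asns, asparagine synthetase, averaged 253 ± 117 CPM in KPC ASC KO, 66.5 ± 63.9 in KPC and 311 ± 43.9 in WT mice. It fell in KPC against WT mice under both scalings, -2.34 (SE 0.50, adjusted p = 0.00302) under TMM and -1.24 (SE 0.30, adjusted p = 0.000781) under total counts. Wars, the tryptophanyl-tRNA synthetase, stood at -1.14 (SE 0.27, adjusted p = 0.00357). Of the same 19, 4 rose in KPC ASC KO over KPC under TMM, with Wars at 1.10 (SE 0.27, adjusted p = 0.0176) and the serine synthesis enzyme Phgdh at 1.87 (SE 0.47, adjusted p = 0.0231), and 3 rose and 6 fell under total counts. Cytosolic and mitochondrial heat shock genes, which answer to another stress response, were set beside them: 1 of 14 rose (7.14%, beside 14.8% of all genes) and 2 fell (14.3%, beside 15.1%) in KPC mice under TMM, and 13 rose (92.9%, beside 79.6%) under total counts. The mitochondrial pair Hspd1 and Hspe1 parted, at 0.57 (SE 0.19, adjusted p = 0.0236) and -0.62 (SE 0.19, adjusted p = 0.0179) for KPC over WT under TMM, while under total counts both rose. None of the 14 was called in KPC ASC KO over KPC under TMM, the smallest p being that of Dnajb1 at -0.88 (SE 0.36, adjusted p = 0.121), and 13 fell under total counts.

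No gene of these 7 lists was called between KPC ASC KO and WT mice under TMM. The smallest p of each list was that of the thioredoxin-like Tmx2 at 1.35 (SE 0.49, adjusted p = 0.356), Fkbp2 at -0.63 (SE 0.27, adjusted p = 0.443) and Lman1 at -0.64 (SE 0.25, adjusted p = 0.401). In the other 4 lists it was that of Ubxn4 at -0.54 (SE 0.17, adjusted p = 0.312), the CHOP target Chac1 at -1.999 (SE 1.04, adjusted p = 0.536), the NF-Y subunit Nfyc at 1.49 (SE 0.41, adjusted p = 0.213) and Hspe1 at -0.58 (SE 0.22, adjusted p = 0.381). The acinar enzymes themselves fell in 31 of 33 genes (93.9%) in KPC against WT mice under either scaling. Beside them 15.1% of all genes were lower under TMM and 2.54% under total counts. The enzyme medians were -2.63 and -1.65. In KPC ASC KO against KPC mice 30 of 33 rose under either scaling (90.9%, beside 6.73% and 2.05% of all genes), with medians of 2.40 and 1.51. The part of the acinar enzymes in the counts of the lists was not tested.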

How the data were processed

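The table holds deposited UMI counts per gene for 18 pancreas libraries, built by the authors on GRCm38 (mm10) and handled with R 4.1.2, edgeR 3.36.0 and limma 3.50.0, per the submitters' processing notes. Per the labels' protocols, poly(A)-primed transcripts carried an 8 bp index and a 10 bp UMI. The aligner, the collapsing of UMIs and the strand rule go unstated: each is not given in the sources used here. Groups follow the labels, and no pair of libraries within a group looked like a duplicate (lowest chi-square per degree of freedom 2.35 over 46 pairs). Genes were filtered with filterByExpr in edgeR 4.0.16 (R 4.3.3), with a minimum count of 10 and a smallest group of 5, leaving 6920 of 25651. All 18 libraries were fitted together with edgeR's quasi-likelihood test and Benjamini-Hochberg adjustment over the 6920 genes, under TMM and again under total counts. Each SE is the absolute log2 fold change divided by the square root of the F statistic, an approximation rather than an output of the fit. Scores are means of log2 CPM with a prior count of 2, and ratios add 0.5 to each count. DESeq2 1.42.0 and limma-voom 3.58.1 were alternatives, with others on filter, groups, covariates and mice. The fits were tested on simulated data under TMM. Of 100 changes of 2-fold, 40 were recovered for KPC over WT, 42 for KPC ASC KO over KPC and 28 for KPC ASC KO over WT. Of 100 changes of 4-fold, 100, 99 and 98 were recovered, with 9, 3 and 9 false calls. A gene that was not called may thus still differ by 2-fold. Depth sets the precision: the ER genes together had 2466 to 4044 counts per library in KPC ASC KO mice, 3305 to 10078 in KPC mice and 1957 to 3490 in WT mice. Hspa5, Xbp1, Atf4, Ddit3, Pdia2 and Erp27 were to be named in every comparison, then called genes in order of p up to 12, and from each other list up to 2 called genes. The genes and lists were chosen with earlier results of these data known. Names beyond that rule were chosen after their values were seen.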

Additional observations from a re-analysis of the deposited data

Results flagged for a closer look

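In 129 groups of 5 to 7 mice (a gene, share or ratio in 1 genotype), the most extreme mouse was compared with its nearest neighbour by Dixon's ratio. Chance flags about 1 of 20 groups where values are normally distributed. The CPM were not logged and the groups reuse the same mice, so the number of flags cannot be judged by that rate. Flags fell on 19 groups, all for a high value. KPC mouse 48 accounts for 12 of them. It had 688.8 CPM of Hspa5 where the next KPC mouse had 329.9, 338.4 of Dnajc3 (next 171.9), 196.8 of Creld2 (92.13), 273.6 of Manf (108.1), 465.6 of Calr (276.1) and 364.8 of Pdia6 (198.9). It also had 964.7 CPM of P4hb (next 508.8), 482.4 of Herpud1 (167.4), 633.6 of Sel1l (298.7), 100.8 of Derl2 (64.29) and 223.2 of Derl3 (91.55), and the ER genes took 0.8931% of its counts (next 0.7172%). The same mouse had the highest acinar enzyme share of the KPC mice, 42.3%, and its part in these values was not tested.

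Among KPC ASC KO mice, mouse 335 had 355.5 CPM of Pdia6 (next 246.7), and mouse 318 a log2 ratio of Derl3 to Derl2 of 2.265 (next 1.535). Among WT mice, mouse 69 had 112.3 CPM of Eif2ak3 (next 70.7) and 285.8 of Edem1 (next 161.1), mouse 1237 had 76.9 of Dnajc10 (next 40.4) and 230.7 of Canx (next 180.6), and mouse 1238 had 65.65 of Dnajb9 (next 41.28).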

How the results depend on the processing

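RLE factors, DESeq2 and limma-voom left every count of ER gene calls within 1.5 times of the TMM count. Under total counts 16 ER genes were higher and 5 lower in KPC over WT, and 3 higher and 17 lower in KPC ASC KO over KPC. Of all 6920 genes, 79.6% were higher and 2.54% lower in the first comparison, and 2.05% higher and 73% lower in the second. The sign of the log2 fold change then turned in 18 of the 33 tested genes for KPC over WT and in 17 for KPC ASC KO over KPC. Among the genes named by rule and called under either scaling, these were for KPC over WT Hspa5 (0.463), Xbp1 (0.464), Atf4 (0.239), Dnajc3 (0.133), Dnajb11 (0.264), Sdf2l1 (0.0772), Syvn1 (0.491) and Edem1 (0.211). For KPC ASC KO over KPC they were Hspa5 (-0.736), Xbp1 (-0.111), Atf4 (-0.343) and Dnajc3 (-0.123). The score difference became 0.456 for KPC minus WT (-0.782 under TMM) and -0.445 for KPC ASC KO minus KPC (0.611). With total counts less the acinar enzymes, 5 ER genes were higher in KPC over WT, beside 1997 of all 6920 genes. In KPC ASC KO over KPC 2 were lower, beside 872 of 6920. With those enzymes out of the denominator, the ER share differed by -0.662 percentage points for KPC minus WT, 0.484 for KPC ASC KO minus KPC and -0.179 for KPC ASC KO minus WT.

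With each mouse's acinar enzyme level as covariate, 0 were higher and 0 lower in KPC over WT and 0 higher in KPC ASC KO over KPC. The same held for all 6920 genes. Among the called genes named by rule, the sign then turned for KPC over WT in Hspa5 (0.109), Pdia2 (0.149), Dnajc3 (0.0852), Sel1l (0.00954), Dnajb11 (0.0365), Herpud1 (0.119) and Edem1 (0.182). For KPC ASC KO over KPC it turned in Atf4 (-0.0523), Pdia2 (-0.133), Edem2 (-0.0223), Dnajc3 (-0.089) and Sel1l (-0.00561). The plasma cell level as a covariate left 7 lower in KPC over WT, beside 638 of all 6920 genes. It left 2 higher in KPC ASC KO over KPC, beside 136 of 6920. Leaving out KPC mice 40, 89, 145 and 154 gave 4 and 0, beside 346 and 0 of 5852 genes. Higher calls in KPC ASC KO over KPC were 3 with no filter on low counts, beside 425 of 25651 genes. They were 2 with only those groups fitted, beside 151 of 7775 genes. The causes were not tested.

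Leaving out 1 mouse at a time gave 1 to 2 higher and 14 to 21 lower calls in KPC over WT, and 3 to 16 higher calls in KPC ASC KO over KPC. Among all 6231 to 7810 genes of these fits, 806 to 1142 were higher and 866 to 1183 lower in KPC over WT. In KPC ASC KO over KPC 139 to 675 were higher. Of the ratio calls, those of KPC over WT were kept in each such test. In KPC ASC KO over KPC, Pdia2 to P4hb lost its call without KPC mouse 154 or KPC ASC KO mouse 318, 335 or 388 (adjusted p of the exact permutation test 0.0519 to 0.0727), and Derl3 to Derl2 without mouse 318 (0.0623). Hspa5 to Hsp90b1 lost its calls without any 1 of the KPC ASC KO mice. No paired analysis was possible because no mouse number occurs in more than 1 group. Depth limits Ddit3, Ern1, Hyou1 and Trib3 most, and counting without strand would affect Ddit3, Manf and Eif2ak3.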

Other observations

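The roles made up different parts of the ER gene counts, a measure that no scaling touches. Lumen chaperones and cochaperones were 17.2% ± 1.73 of these counts in KPC ASC KO mice, 27.2% ± 4.39 in KPC mice and 17.7% ± 2.17 in WT mice (SD, n = 5, 7 and 6), and the KPC range, 20.6% to 33.5%, lay above the 15.4% to 19.3% of KPC ASC KO mice and the 14.8% to 19.5% of WT mice. ERAD genes were 17.6% ± 0.715 in KPC ASC KO mice, 15.3% ± 2.80 in KPC mice and 20.2% ± 0.860 in WT mice. Sensors and transcription factors were 10.1% ± 2.15, 10.9% ± 1.42 and 8.62% ± 1.27 in the same groups and overlapped. Since the shares of a library add up to the whole, a larger chaperone share goes with a smaller share elsewhere. Pdia2 alone had 503 to 1005 of the 1957 to 3490 ER gene counts per WT library. In KPC libraries it had 154 to 673 of 3305 to 10078, so its fall raises the other shares. These shares were not tested.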
